A study of Brassica rapa with 8 samples.

Results

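The genes described here are the 150 gene models of *Brassica rapa*, of 38200 in the deposited table, whose expression in root lay farthest below that in every other tissue examined. They were chosen by their measured values: genes were ranked by the log2 ratio of the lowest level among 5 tissues (leaf, stem, flower, silique and callus) to the level in root, each with 1 added, and the top 150 were taken. This log2 ratio is called the score below. Since the score was computed from these same samples, the low root level of the 150 genes is the criterion of their choice and is given as a description without a test.

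Messenger RNA was measured by RNA-seq in 6 tissues of Chiifu-401-42, an inbred Chinese cabbage that served as the reference line for the genome of the species. Of the 8 samples 2 were from root and 2 from leaf, while callus (cells grown in culture without forming organs), silique (the seed pod), flower and stem gave 1 each. Roots, stems and leaves were from plants of 7 weeks, siliques were collected 15 days after pollination, and flowers were in bloom. Per the labels the plants stood in a greenhouse in sunlight at 15 to 25°C, whereas callus grew in an illuminated cabinet at 25°C. The study's methods instead give a single greenhouse temperature for the plants, within that range. All the tissues were of 1 untreated genotype, and the study's methods place the 2 root and the 2 leaf samples in different batches of plants. The other tissues had 1 sample each and hence no replicate.

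Roots are non-green organs that live on sugars from the shoot and take up water and minerals, and most of their plastids do not photosynthesise. Leaves are the main photosynthetic organ, and stems, sepals and young silique walls are also green. A transcript that is present throughout the shoot and in callus but missing in root therefore belongs to a class defined by 1 organ only, in contrast to transcripts that mark a single organ by being high there. The table gives each gene as an identifier without name or function, and a RefSeq gene table of this species held 1 of the 38200 identifiers and none of the 150. No function, marker list or sequence is therefore given for them, and the labelled tissues were not checked against markers.

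Expression was given as FPKM, a count of fragments scaled to the length of the gene model and to the size of the library, which allows levels of different genes to be compared per length. Each value came with a 95% confidence interval, from which the number of fragments behind it was derived. The relative depth obtained from these numbers was 1.90 times that of stem in root 1 and leaf 1, and between 1.05 and 1.27 times in root 2, leaf 2, flower, silique and callus. A gene was taken as detected in a sample when the lower bound of its interval was above 0, which held for 24593 to 28122 genes per sample.

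The 150 genes were low in root, and most were high in leaf, with 128 at 50 FPKM or more there. The 2 root samples had median levels of 0.561 and 0.400 FPKM. The leaf samples had medians of 299.99 and 279 FPKM. Stem, flower, silique and callus stood between, with medians of 76.0, 70.1, 35.1 and 31.8 FPKM. Over all 38200 genes the medians lay between 2.00 FPKM (leaf 2) and 3.74 FPKM (root 1), so that the genes stood below the typical gene in root and above it in each of the other 6 samples. In these bulk samples, fewer cells of a type and less RNA per cell cannot be told apart.

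**Figure D1:**
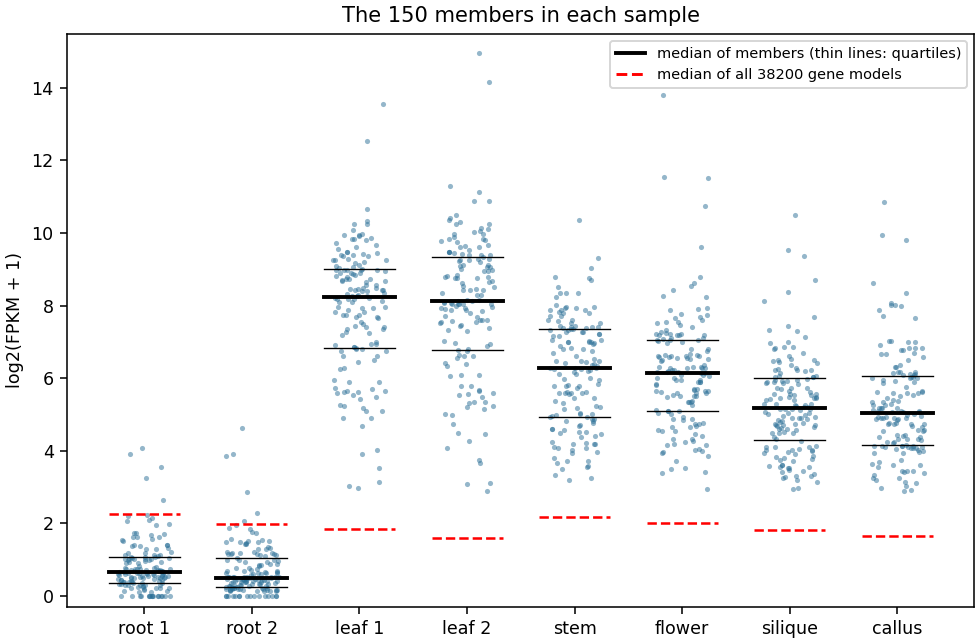
The 150 genes in each of the 8 samples on the log2(FPKM + 1) scale (vertical axis). Points are genes, thick and thin black lines are their median and quartiles, and the red dashed line is the median of all 38200 gene models; the points of both root samples lie near the bottom, with medians of 0.561 and 0.400 FPKM, and those of the 2 leaf samples are highest, with medians of 299.99 and 279 FPKM.

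The score of the 150 genes had a median of 3.70 and ranged from 2.72 to 6.56, while its median over all genes was −0.70. A score above 0, that is a root level below the lowest of the 5 other tissues, was found for 2663 genes (6.97%). A score of at least 1 was found for 631 genes, of at least 2 for 261 and of at least 4 for 57. Among the 150 genes the lowest of the 5 other tissues stood between 6.45 and 744 FPKM, with a median of 22.5. Among all gene models, 7457 reached 6.45 FPKM in each of these 5 tissues, and their median root level was 27.9 FPKM. A level of 6.45 FPKM or more in all 5 was hence found in many genes beyond the 150, and was in most cases accompanied by expression in root.

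Both root samples lay below all 6 other samples in 150 of the 150 genes, against 5.36% of all genes. Likewise, the root–leaf comparison with limma (Benjamini-Hochberg adjusted p under 0.05) called all 150 lower in root, where 15.1% of the 27588 genes tested were called. The choice of the genes used both measures, so nothing is read from either count. A root sample that had no part in the choice was also examined. When the 150 genes were chosen with root 2 alone, root 1 stood below the other 6 samples in 150 of 150 (6.04% of all genes), with a median score in root 1 of 3.64 and a range of 1.69 to 6.36. When they were chosen with root 1 alone, root 2 did so in 150 of 150 (8.08% of all genes), with a median of 3.71 and a range of 1.91 to 6.80. The 5 other tissues were the same samples in both cases and were chosen to be high, so the shares over all genes are no baseline for these counts, which describe how far the root samples agree within the chosen genes.

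**Figure D2:**
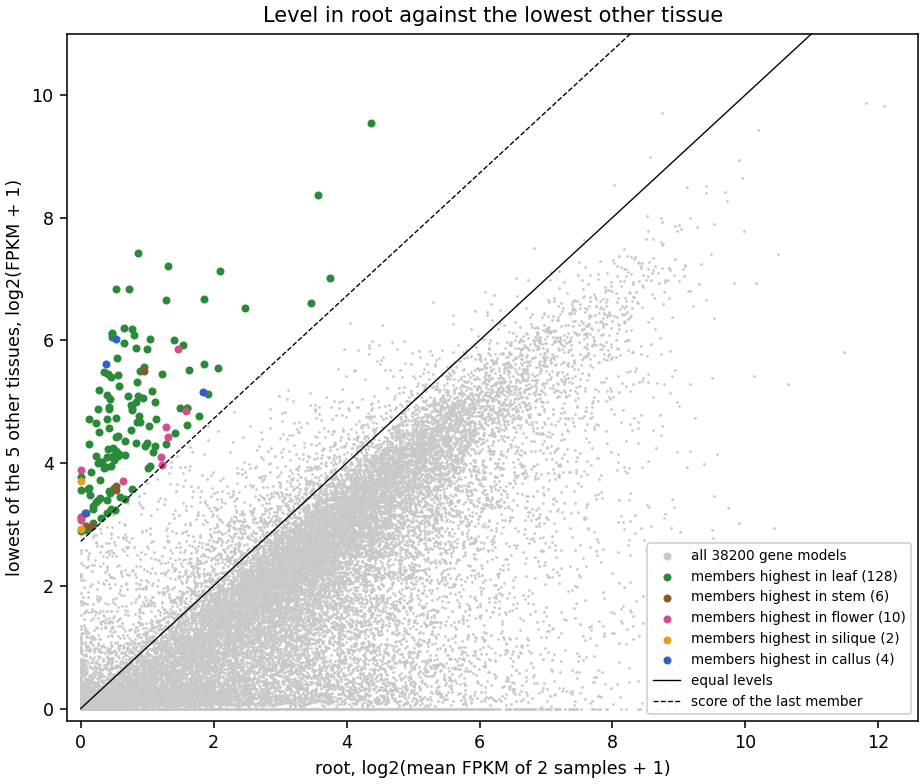
Mean level in the 2 root samples (horizontal axis) against the lowest of the 5 other tissues (vertical axis), both as log2(FPKM + 1), for all 38200 gene models in grey and the 150 genes coloured by the tissue of their highest level. The solid line marks equal levels and the dashed line a score of 2.72, that of the last gene chosen; most grey points lie below the solid line and 128 of the coloured points are highest in leaf.

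Bra035087 had the highest score. It was at 1.09 FPKM in root 1 and 0.546 in root 2, against 437 and 904 in the leaf samples, 393 in flower, 279 in silique, 201 in callus and 171 in stem. No other sample came near the 2 roots, and this gene was high in every organ of the shoot and not in leaf alone. The next, Bra005425, stood at 0.462 and 0.432 FPKM in root and at 511 and 626 in leaf, with 192 in flower, 161 in stem, 155 in silique and 113 in callus. Bra018144 was at 1.01 and 0.304 FPKM in root, 1009 and 1318 in leaf, 235 in flower, 221 in stem, 126 in callus and 113 in silique. In Bra005425 and Bra018144 both leaf samples were above the other 4 samples outside root, with flower next.

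Bra008392 had 1.48 FPKM in both root samples, 963 and 1124 in leaf, and from 146 (stem) to 371 (flower) in the other tissues. In Bra012083 the root values were 0.616 and 0.154 FPKM, leaf had 461 and 432, and the lowest of the other samples was callus at 68.6. Bra014433 was at 0.665 and 0.0998 FPKM in root and at 683 and 788 in leaf, with 259 in stem and 67.8 to 96.0 in flower, silique and callus. These 3 genes again had leaf on top, by a margin that was smallest over stem or flower. Bra030660 departed from this in that stem, at 246 FPKM, was close to leaf, at 408 and 346, while flower, silique and callus stood between 65.3 and 96.8 and root at 0.587 and 0.196.

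Bra018305 was at 0.766 and 0.383 FPKM in root, 307 and 532 in leaf, and 72.4 (flower) to 132 (stem) elsewhere. Bra031813 was at 0.565 and 0.847 FPKM in root, 499.8 and 709 in leaf and 71.9 (silique) to 126 (stem) elsewhere. The 2 leaf samples were thus the highest in both. Bra037913 was at 1.15 and 1.73 FPKM in root, 1086 and 2234 in leaf, and between 100.1 (callus) and 322 (stem) elsewhere. Bra000144, with 0.557 and 0.593 FPKM in root and 360.2 and 516 in leaf, had its second highest level in callus, at 253, and its lowest outside root in silique, at 61.2. Among the 12 genes of highest score, Bra038863 was the 1 in which leaf was not highest. It stood at 207 FPKM in callus, 200.5 and 183 in leaf, 131 in flower, 111 in stem and 63.8 in silique, with 0.512 and 0.384 in root.

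**Figure D3:**
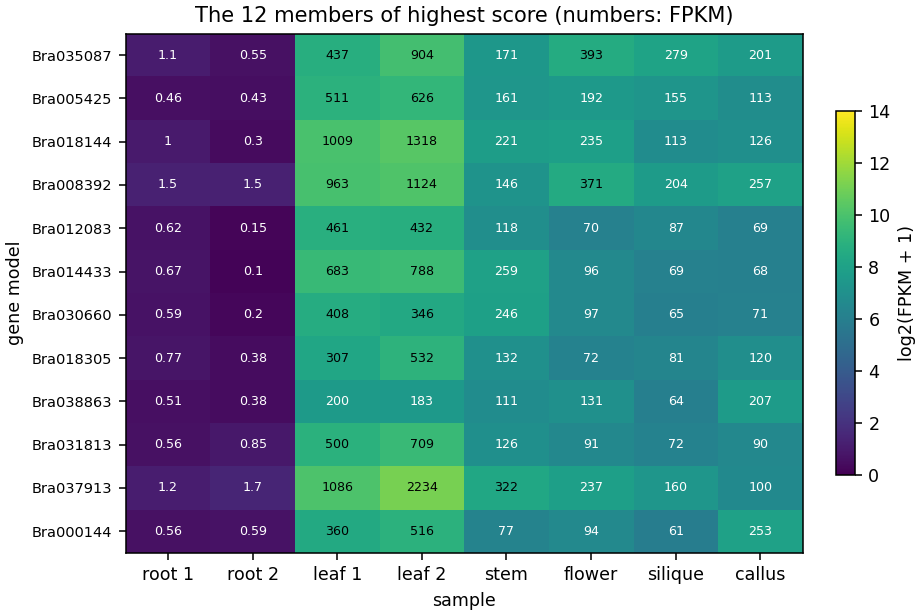
FPKM (numbers) of the 12 genes of highest score in each of the 8 samples, with colour giving log2(FPKM + 1). The 2 root columns are at 1.73 FPKM or less in each gene and the leaf columns are the brightest in all but Bra038863, in which callus, at 207 FPKM, is above leaf.

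At the other end, the last 5 genes chosen had scores of 2.80 (Bra035525), 2.79 (Bra016481), 2.75 (Bra026982), 2.74 (Bra025213) and 2.72 (Bra031893). Just outside were Bra027840 and Bra003053, both at 2.72, Bra026314 at 2.70, and Bra035486 and Bra036528, both at 2.68. The scores were continuous across the boundary, but the patterns behind them differed. Bra016481 was at 0.281 and 0.351 FPKM in root and at 345 and 311 in leaf, and its score was limited by 8.11 in callus. Bra025213 was at 1.45 and 1.23 FPKM in root, 58.2 and 44.9 in leaf, 146 in flower and 14.6 in stem. Bra027840, the first gene outside, had 4.37 and 6.66 FPKM in root and 293 in silique.

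The level left in root was so low that it rested on few fragments. The derived number had a median of 9 in root 1 and 4 in root 2, and 48 and 83 of the 150 genes had 4 or fewer. In the 6 other samples the lowest number for any of the 150 genes was between 15 (silique) and 81 (leaf 1). Accordingly, 44 genes (29.3%) were detected in neither root sample, 39 (26.0%) in one and 67 (44.7%) in both. Over all genes the shares were 25.7%, 5.36% and 68.9%, so that for neither sample the 150 were close to all genes. Each of the 150 was detected in all 6 others, which held for 20051 of all genes. Of the 39, 37 were detected in the deeper root 1 and 2 in root 2. At this depth, absence from root was not distinguishable from a low level. The count of 44 also moved with the choice of genes, to 75 with 0.1 in place of 1 added to the values and to 28 with 5. Root 2 on its own, the shallower of the samples, detected 69 of the 150 genes (46.0%, against 69.6% of all genes). Root 1 detected 104 (69.3%, against 73.6% of all genes).

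Of the 150 genes, 9 were listed at 0 in both root samples (5922 of all 38200), and 96 were below 1 FPKM in both (13133 of all). Bra016073 was the one of these 9 with the highest score. It was listed at 0 in both roots and at 15.1 and 12.4 FPKM in leaf, 19.7 in callus, 168 in stem, 665 in silique and 2951 in flower. Bra012282 was listed at 0 in both roots, with 113 and 194 FPKM in leaf and 12.7 (silique) to 34.6 (stem) in the other samples. Bra018629 was listed at 0 in both roots, with 212 and 263 FPKM in leaf, 112 in stem, 44.3 in flower, 16.0 in callus and 10.8 in silique. The latter 2 genes had the common order with leaf on top, while Bra016073 was, outside root, lowest in leaf. No fold was formed for genes at 0 in root.

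Conversely, 145 genes were below 5 FPKM in both root samples (20376 of all 38200), and 4 had a mean root level of at least 5. Bra028181 had the highest, with 15.9 and 23.5 FPKM in root 1 and root 2. The others were Bra028174 (8.45 and 13.4), Bra027109 (10.7 and 14.1) and Bra004459 (13.9 and 6.21), the latter 2 being named because they belong to this count of 4. These genes entered the list through high levels elsewhere: Bra028181 was at 744 FPKM even in its lowest other tissue, silique. For the 141 genes with a root level above 0, the ratio of the lowest other tissue to root had a median of 43.2 and ranged from 9.66 to 270, and it was 100 or more in 30 genes. The ratio of leaf to root had a median of 731 and ranged from 19.0 to 3623. These ratios share the low fragment numbers of the root samples as their denominators.

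Beyond low root expression, most of the genes had their highest level in leaf. Leaf was the highest of the 5 other tissues in 128 of 150 genes (85.3%), while it was so in 12.9% of the 29963 genes that reached 1 FPKM in any of these tissues. Flower was highest in 10 genes, stem in 6, callus in 4 and silique in 2. The lowest of the 5 was callus in 66 genes, silique in 56, stem in 19, flower in 5 and leaf in 4. The score used this lowest level, and no share over all genes was computed, so nothing is read from these counts. In the 128 genes with leaf on top, the tissue in second place was stem in 67, flower in 42, callus in 17 and silique in 2. Leaf exceeded each of the 4 others at least 2-fold in 105 genes and at least 10-fold in 2. For the tissue in second place and for these folds, no share over all genes was computed either. The choice required expression in all 5 tissues, so genes restricted to leaf could not be among the 150.

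The genes made up a large part of the strongest leaf transcripts. Of the 32 genes with a mean leaf level of at least 1000 FPKM, 13 were among the 150, and of the 124 with at least 500 FPKM, 46 were. They were 96 of the 528 genes at 200 FPKM or more and 128 of the 2562 at 50 FPKM or more. Summed over the 150 genes, FPKM amounted to 10.3% of the total in leaf 1 and 16.0% in leaf 2. The same share was 5.84% in flower, 2.44% in stem, 1.62% in silique and 1.56% in callus, and 0.0249% and 0.0236% in root 1 and root 2. The difference between the leaf samples lay largely in Bra028181 and Bra028174, without which the share was 7.72% in leaf 1 and 8.999% in leaf 2. The flower share rested in part on Bra017112, without which it was 3.50%.

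Leaf was compared with each of the 4 other tissues with limma, in 1 fit over the 8 samples in which tissues with 1 sample were assumed to vary as root and leaf did. The spread came from the 2 root and 2 leaf samples alone. Of the 150 genes, 96 were below 1 FPKM in both roots, where adding 1 before the log narrows the spread. For the 9 at 0 in both roots, Bra016073 and Bra028980 among them, root added none. Standard errors and adjusted p-values may therefore be too small. These contrasts share the 2 leaf samples, and the choice of genes used them only through the lowest of the 5 tissues. Against stem, 100 of the 150 genes were called higher in leaf (6.11% of all genes tested) and 4 lower (13.0%). The median difference was 1.78 on the log2 scale, beside −0.39 over all genes. These calls were lost when any one of root 1, root 2, leaf 1 or leaf 2 was left out. No gene of all those tested was then called between leaf and stem. The loss was hence not particular to the 150 genes, whose median difference remained between 1.71 and 1.86.

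Against flower, 117 genes were called higher in leaf (16.1% of all) and 10 lower (16.9%), with a median log2 difference of 2.19 beside −0.05 over all genes. The total of 127 fell when any one of root 1, root 2, leaf 1 or leaf 2 was left out, as did the calls over all genes. The median difference of the 150 genes then lay between 2.09 and 2.27. Against silique, 132 genes were higher in leaf (20.6% of all) and 4 lower (18.0%), with a median of 2.96 beside 0.00. Against callus, 125 were higher (24.2%) and 4 lower (20.3%), with a median of 2.77 beside 0.10. As the choice of genes used these same values and the other tissues had 1 sample each, the counts describe the 150 genes and are no independent evidence of leaf expression. Both leaf samples were above stem in 140 of the 150 genes, above flower in 132, above silique in 142 and above callus in 138. Among the 29963 genes that reached 1 FPKM in any tissue outside root, this held for 6950, 11025, 11820 and 13278, in the same order.

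**Figure D4:**
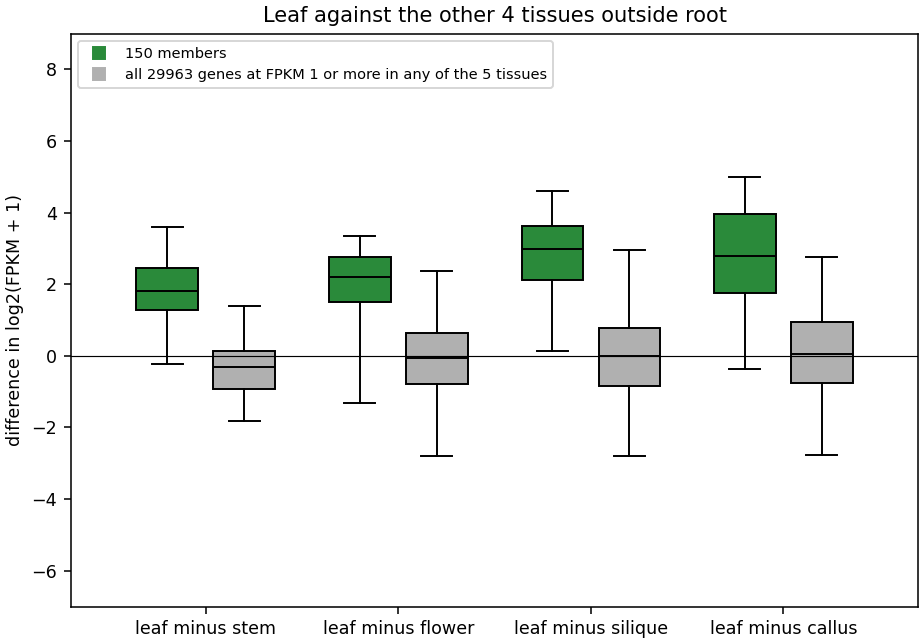
Difference in log2(FPKM + 1) between leaf (mean of 2 samples) and stem, flower, silique and callus, for the 150 genes (green) and for all 29963 genes that reached 1 FPKM in any of the 5 tissues outside root (grey). Boxes are quartiles with the median, and whiskers run from the 5th to the 95th percentile; the green medians lie between 1.82 (stem) and 2.99 (silique), and the grey ones between −0.31 and 0.04.

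Bra025431 and Bra005424 were the 2 genes in which leaf exceeded the next tissue by most. Bra025431 was at 2.26 and 1.83 FPKM in root, 1218 and 2532 in leaf, 161 in flower, 83.9 in stem, 46.7 in callus and 28.7 in silique. Its log2 difference of leaf from flower, the next tissue, was 3.44 ± 0.49 (SE, limma adjusted p = 0.00809). Bra005424 was at 0.338 and 0.317 FPKM in root, 341 and 434 in leaf, and 17.8 (callus) to 33.2 (flower) elsewhere. Leaf differed from flower by 3.49 ± 0.27 on the log2 scale (SE, limma adjusted p = 0.00199). In both genes the 2 leaf samples lay far from every other sample.

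The largest values of all belonged to Bra028181 and Bra028174. Bra028181 was at 12016 FPKM in leaf 1 and 31653 in leaf 2, 2974 in flower, 1841 in callus, 1302 in stem and 744 in silique. Bra028174 was at 5963 and 18296 FPKM in leaf, 1711 in flower, 901 in callus, 366 in stem and 329.9 in silique. The order of tissues was the same in both. Their spans overlap, however: the table places Bra028174 on Scaffold000060 from 635634 to 679983 and Bra028181 on the same scaffold from 679078 to 680073. The level of Bra028181 was 1.73 to 3.56 times that of Bra028174 over the 8 samples. The library protocol names no step that marks strand, and without strand fragments from the shared stretch cannot be told apart. The 2 genes can therefore not be taken as independent observations of leaf expression. Each was nevertheless counted separately in the counts of genes highest in leaf and of genes at high leaf levels. Only the share of summed FPKM was also given without them.

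A further 22 genes were not highest in leaf, and these were diverse. In Bra017112 flower stood at 14316 FPKM, against 324 and 315 in leaf, 23.0 to 29.5 in stem, silique and callus, and 1.58 and 1.29 in root. The log2 difference of leaf from flower was −5.48 ± 0.25 (SE, limma adjusted p = 0.000800). This gene had the widest spread of the 150, with a coefficient of variation of 216% over the 5 tissues. Flower and, far below it, leaf thus stood out, and root was the lowest point of a broad range. In Bra016073, given above with its values, the log2 difference of leaf was −7.65 ± 0.26 from flower (SE, limma adjusted p = 0.000613) and −5.50 ± 0.26 from silique (adjusted p = 0.000578).

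Bra027035 was listed at 0 in both roots and stood at 7.11 and 7.63 FPKM in leaf, 9.83 in silique, 12.4 in callus, 17.3 in stem and 95.6 in flower. Bra032697 and Bra018469 were also called lower in leaf than in flower by limma, as were Bra027036, Bra028980, Bra020198, Bra004538 and Bra025213, which together with Bra017112, Bra016073 and Bra027035 are the 10 counted above. Bra032697 and Bra018469 are named only for that count, after their values were seen. In Bra018469 flower and silique were close, at 444 and 419 FPKM, while leaf had 28.9 and 20.9 and root 1.65 and 0.965. The 10 genes had flower as their highest tissue with 3 exceptions: Bra020198 was highest in stem, and Bra028980 and Bra004538 in silique.

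Silique was highest in Bra028980 and Bra004538. Bra028980 was listed at 0 in both roots and stood at 1434 FPKM in silique, 78.7 in flower, 34.8 in callus, 13.9 and 18.4 in leaf and 12.04 in stem. The log2 difference of leaf from silique was −6.40 ± 0.28 (SE, limma adjusted p = 0.000551). Bra004538, also listed at 0 in both roots, had 31.5 FPKM in silique, 18.0 in flower, 16.1 in callus, 8.50 in stem and 6.76 and 6.40 in leaf. The 2 genes shared the order of silique, flower and callus but at levels far apart.

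Stem was highest in 6 genes, of which limma called 1, Bra020198, lower in leaf than in stem. Bra020198 was at 442 FPKM in stem, 217 in flower, 114 and 82.5 in leaf, 32.3 in callus, 10.8 in silique and 0.534 and 0.343 in root. The log2 difference of leaf from stem was −2.17 ± 0.31 (SE, limma adjusted p = 0.0199). Bra009805 was at 169.9 FPKM in stem, 95.8 and 44.0 in leaf, 66.1 in silique, 58.6 in callus and 44.2 in flower, and its log2 difference of leaf from stem was −1.37 ± 0.67 (SE, limma adjusted p = 0.192). In Bra031247 stem, at 55.1 FPKM, was next to leaf, at 52.1 and 39.5, with 7.73 to 14.1 in callus, silique and flower and 0 listed in both roots.

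Callus was highest in Bra005019, Bra029732, Bra032945 and Bra038863. Bra029732 was at 325 FPKM in callus, 214 and 246 in leaf, 76.5 to 79.5 in flower and stem, 47.8 in silique and 0.237 and 0.355 in root. Bra005019 was at 77.6 FPKM in callus, 40.8 in silique, 36.3 and 15.7 in leaf, 28.1 in flower, 8.08 in stem, and 0.0898 and 0 in root. The log2 difference of leaf from callus was −0.50 ± 0.25 in the former and −1.65 ± 0.52 in the latter (SE), and neither passed the limma threshold (adjusted p = 0.172 and 0.0571). Bra032945, at 981 FPKM in callus and 344 and 398 in leaf, was called by limma (−1.40 ± 0.37, adjusted p = 0.0341); it is named as one of these 4, outside the naming rule.

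**Figure D5:**
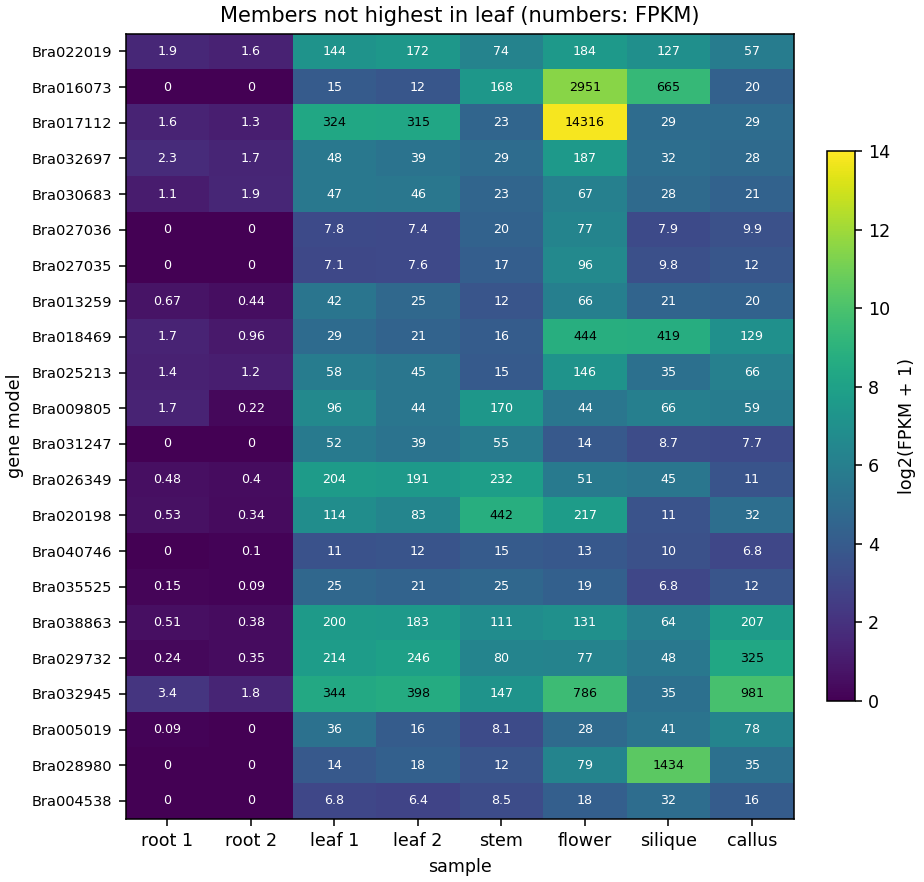
FPKM (numbers) in each of the 8 samples of the 22 genes that were not highest in leaf, ordered by the tissue of their highest level (flower 10, stem 6, callus 4, silique 2), with colour giving log2(FPKM + 1). The root columns stay at 3.39 FPKM or less while the brightest column changes from gene to gene, up to 14316 FPKM for Bra017112 in flower.

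The spread over the 5 tissues outside root also varied widely, with a coefficient of variation between 28.2% and 216% and a median of 110.3%. The highest of the 5 was 2.22 to 623 times the lowest, with a median of 12.04. The most even gene was Bra040746, at 15.1 FPKM in stem, 13.4 in flower, 10.6 and 11.6 in leaf, 10.1 in silique and 6.83 in callus, with 0 and 0.105 in root. Bra038863 had a coefficient of variation of 41.9% and Bra014326 of 42.5%. The latter was at 32.9 and 31.0 FPKM in leaf, 19.1 in flower, 16.0 in silique and in callus, 10.7 in stem and 0.324 and 0.347 in root. These 3 genes came closest to a uniform level with a gap in root alone. For Bra040746 limma called no difference of leaf from any of the 4 other tissues (adjusted p from 0.115 to 0.755), which at this number of samples does not show that the levels were equal.

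On the log2(FPKM + 1) scale the replicates differed by little beside the distance of root from the rest. Root 2 minus root 1 had a median of −0.07 and a range of −1.40 to 0.71 over the 150 genes. Over the 25067 genes that reached 1 FPKM in either root sample the median was −0.26. In 4 of the 150 genes, Bra004459 among them, the samples were over 1 apart, beside 1138 of the 25067. The 96 genes below 1 FPKM in both roots could not be, because 1 was added before the log. By ratio of FPKM some of these differed several-fold, as in Bra014433, at 0.665 in root 1 and 0.0998 in root 2. On the log2(FPKM + 1) scale Bra000451 was farthest apart, at 3.23 FPKM in root 1 and 0.606 in root 2, followed by Bra009805 (1.65 and 0.219) and Bra027188 (1.87 and 0.351). In each of these the higher value was in root 1. Both root values of each gene were nevertheless below every other sample, the lowest of which was 59.9 FPKM for Bra000451, 44.0 for Bra009805 and 34.9 for Bra027188.

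In leaf the 2 samples were over 1 apart in 12 genes, beside 1224 of the 23156 genes compared. Leaf 2 was the higher in 88 of the 150 (58.7%), as against 19.8% of those 23156. The median of leaf 2 minus leaf 1 was 0.10 on the log2 scale for the 150 genes and −0.30 for all genes. Among genes of at least 50 FPKM in leaf, the medians were 0.16 for the 128 members and −0.17 for all 2562. At 200 FPKM or more they were 0.21 for the 96 members and 0.06 for all 528. At 500 FPKM or more they were 0.32 for the 46 members and 0.24 for all 124. The sets of all genes include the members, whose part in them grows with the cutoff and draws the medians together. Whether expression level accounts for the distance was not tested. Leaf 2 was the higher in 82 of the 128 genes with leaf on top and in 6 of the 22 others. Bra007750 differed most, at 169 FPKM in leaf 1 and 1068 in leaf 2, with 214 in flower, 115 in silique, 114 in callus, 26.2 in stem and 0.414 and 1.24 in root. In this gene flower lay between the leaf samples, and the difference of leaf from flower did not pass the limma threshold (0.99 ± 1.11 on the log2 scale, SE, adjusted p = 0.547). Bra023909 went the other way, with 407 FPKM in leaf 1 and 129 in leaf 2, and 9.27 to 46.9 in the other tissues outside root.

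The 150 genes were scattered over 80 of the 423 scaffolds in the table, with at most 7 on one. Another of the 150 lay within 2 genes on either side in 8 of them, forming 4 pairs, and within 5 genes in 9. In 3 of the 4 pairs the spans overlap (Bra027035 with Bra027036, Bra028174 with Bra028175, and Bra033589 with Bra033590), so their fragments may be shared. Bra028181, which also overlaps Bra028174, lies farther from it in the order of genes and is not among the 8. Overlap with any other gene was recorded for 15 of the 150 genes and for 7.93% of all genes. The span of the 150 genes had a median of 1226 bases, against 1780 for all genes and 2123 for the 19532 genes detected in all 8 samples.

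Bra005424 and Bra005425 were the pair of neighbours that did not overlap. They lie 769 bases apart on Scaffold000004, from 5424598 to 5425232 and from 5426001 to 5426976. Both were low in root and highest in leaf, but they differed elsewhere. The level of Bra005425 was 1.44 to 1.501 times that of Bra005424 in leaf, while in stem, flower, silique and callus it was 5.64 to 6.49 times as high. In both root samples it was 1.36 times as high, but on few fragments. These numbered 7.2 and 4.5 for Bra005425 and 3.2 and 2 for Bra005424, which was detected in neither root sample. The fall from leaf to the other tissues was thus steeper in Bra005424, where leaf minus stem was 3.71 ± 0.27 on the log2 scale, than in Bra005425, where it was 1.81 ± 0.26 (SE), a difference between genes that was not tested.

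In the overlapping pair of Bra033589 and Bra033590, the former was at 0.282 and 0.390 FPKM in root, 356 and 457 in leaf, 102 in stem, 64.6 in callus, 47.2 in flower and 28.5 in silique. Bra033590 was at 0.651 and 0.326 FPKM in root, 445 and 544 in leaf, 75.03 in stem, 77.9 in callus, 60.6 in flower and 37.3 in silique. Both had leaf on top and silique lowest outside root. Bra027036, which overlaps Bra027035, was listed at 0 in both roots and stood at 7.78 and 7.42 FPKM in leaf, 7.85 in silique, 9.93 in callus, 20.1 in stem and 77.2 in flower. Its order of flower, stem and callus was that of Bra027035. Bra028175, inside the long span of Bra028174, was at 153 and 221 FPKM in leaf, 62.0 in stem, 47.7 in flower, 37.7 in callus, 25.5 in silique and 0.437 and 0.205 in root, an order of tissues unlike that of Bra028174, where stem stood below flower and callus.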

How the data were processed

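Poly(A)+ RNA of 8 samples was sequenced in pairs of reads. The authors deposited 1 table of FPKM, with the bounds of a 95% confidence interval, for 38200 gene models. Per the study's methods reads were trimmed, filtered, mapped with TopHat and passed to Cufflinks, which estimated FPKM from reads with 1 location. The submitters' processing notes give TopHat 1.0.13, whereas the methods give a later version. The table names no tool or build and gives positions on scaffolds, so it may stem from another run than the one in the methods. No column was left unmatched to a sample (0 columns).

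The 150 genes and the rules below were chosen with earlier results of these data known. Root and leaf were the mean of 2 samples in the score, with a pseudocount of 1. Fragments behind a value were derived as 4 times the square of FPKM over its distance to the upper bound, which takes the interval as counting error alone; it came out whole within 0.05 in 87.6% to 92.6% of values under 200 fragments. Depth is the median of fragments per FPKM relative to stem.

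Differences were tested with limma 3.58.1 (R 4.3.3; lmFit, eBayes with trend) on log2(FPKM + 1), over the 27588 genes that reached 1 FPKM in 2 or more samples, in 1 fit of 6 tissues with 2 residual degrees of freedom. The pseudocount makes differences of weakly expressed genes too small. It also narrows the spread between root replicates, which enters the standard errors of every contrast. P-values were two-sided and Benjamini-Hochberg adjusted over all genes tested. The code was tested on simulated data. Python 3.11.15, numpy 2.4.6, pandas 2.3.3 and matplotlib 3.10.9 were used.

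Genes were named by rule: the 12 of highest score, 5 on either side of the limit, the 5 highest outside root, the 2 in which each tissue most exceeds the next, the 3 most and 3 least even, the 3 with replicates farthest apart in root and in leaf, up to 5 listed at 0 in both roots, and neighbouring members. Gene lists by function could not be applied. Alternatives were other pseudocounts, no filter, upper quartile scaling, no trend, a replicate block, the higher root sample in place of the mean, wider neighbourhoods, and leaving out each root or leaf sample.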

Additional observations from a re-analysis of the deposited data

How the results depend on the processing

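Of 76 alternatives, 64 gave a count within 1.5 times that reported and 12 did not. Among the 64 were the 10 alternatives of the root–leaf count, which the choice of genes fixed. The 12 were 5 for leaf and stem, 4 for leaf and flower, and 3 for genes not detected in root. The genes called different between leaf and stem numbered 104, but 55 with no filter on low values, and 0 to 0 when any one replicate was left out; for leaf and flower, leaving one out gave 46 to 75 in place of 127. Genes not detected in root numbered 75 with a pseudocount of 0.1, 28 with a pseudocount of 5, and 44 to 81 with one replicate left out, in place of 44; without root 1 the count rests on detection in root 2 alone. Between 118 (pseudocount of 0.1) and 150 of the 150 genes were chosen again. Upper quartile scaling moved the median of all genes by 0.26 (leaf minus stem) and by −0.12 (root minus leaf) on the log2 scale.

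Root and leaf share replicate numbers, which the labels do not tie to a batch. Deviations of same-numbered samples correlated over 27588 genes, which are not independent (Pearson r = 0.61, 2 pairs). With the replicate block limma called 150 genes between root and leaf, and 139, 139, 142 and 142 between leaf and stem, flower, silique and callus. The block also raised the calls over all 27588 genes, to 13964 higher and 5677 lower in root than in leaf. Higher and lower in leaf were 4191 and 9485 against stem, and 8391 and 7298 against flower. Against silique they were 9447 and 7422, and against callus 10847 and 7464. The rise was hence not particular to the 150 genes. Depth limits the root values, which rest on a median of 9 and 4 fragments, and tissues with 1 sample have no error of their own.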
